A study of Mus musculus with 2 samples.

Results

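The nuclear genes for subunits of respiratory complexes I, III and IV were examined in brain RNA of mice with and without interleukin-18, an inflammatory cytokine encoded by Il18. They were taken from a fixed list of 55 genes, of which 35 belong to complex I, 9 to complex III and 11 to complex IV, and probes were assigned to them by transcript accession. All 55 were measured, by 70 probes, among 15738 measured genes in all. The series compared Il18+/+ with Il18-/- male mice of the background C57Bl/6 N, 12 weeks old, with no treatment given in the labels. For each genotype the total RNA of 7 mice was combined into 1 pool, and the pool was read on 1 Agilent array in a single dye, so each genotype is 1 sample. No difference below has a replicate check or a test, and the spread between mice is not known. The labels give the Il18 genotype only, and how the allele was made is not given in the sources used here. The sample labels name the hippocampus, whereas the extraction protocol and a sentence of the design name the prefrontal cortex, so the region is not settled by the labels. Of 6 hippocampal marker genes all 6 were measured on both arrays, among them Wfs1, Neurod6 and Prox1. So were 5 of 6 liver markers and 5 of 6 medial habenula markers, so being measured does not settle the region. No list of prefrontal cortex markers was examined.

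The respiratory chain of the inner mitochondrial membrane passes electrons from NADH and succinate to oxygen and pumps protons, and ATP synthase uses the proton gradient to make ATP. Complex I takes electrons from NADH to ubiquinone, complex III passes them on to cytochrome c, and complex IV, cytochrome c oxidase, gives them to oxygen. Each complex joins subunits encoded in the nucleus with a few encoded by mitochondrial DNA, and neurons depend heavily on this pathway for the ATP that restores ion gradients. The mitochondrially encoded subunits were not analysed here.

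Most of the respiratory chain genes read slightly higher in the Il18-/- pool, and none reached 1.5-fold in either direction. Levels are given as log2 of the array's processed signal minus log2 of the 75th percentile of that array, and differences are Il18-/- minus Il18+/+, so that 0.14 is about 1.1-fold. The median difference over the 55 genes was 0.08, or 1.05-fold, with an interquartile range of 0.03 to 0.12 and extremes of -0.12 and 0.33. With this scaling 48 of the 55 genes were higher and 7 lower, where 52.6% of all measured genes were higher and 47.4% lower. The split changes with the scaling between the arrays, and the number higher was 51 when each array's median was subtracted, 31 in the deposited value table, 27 after quantile normalization, 25 after cyclic loess and 1 of 55 when the arrays were set to their spike-in controls. At 1.1-fold or more 11 genes (20.0%) were higher, against 21.1% of all genes, and 0 were lower, against 24% of all genes. At 1.2-fold or more 2 genes were higher, Cox7c of complex IV and Ndufb3 of complex I, against 7.34% of all genes, and 0 were lower, against 12.4%. At 1.5-fold the shares of all genes were 1.68% higher and 2.57% lower. The SD over the members was 0.09, against 0.31 over all genes and 0.12 over the other genes in the interquartile range of the members' level. In bulk RNA fewer cells of a type and less RNA per cell cannot be told apart.

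**Figure D1:**
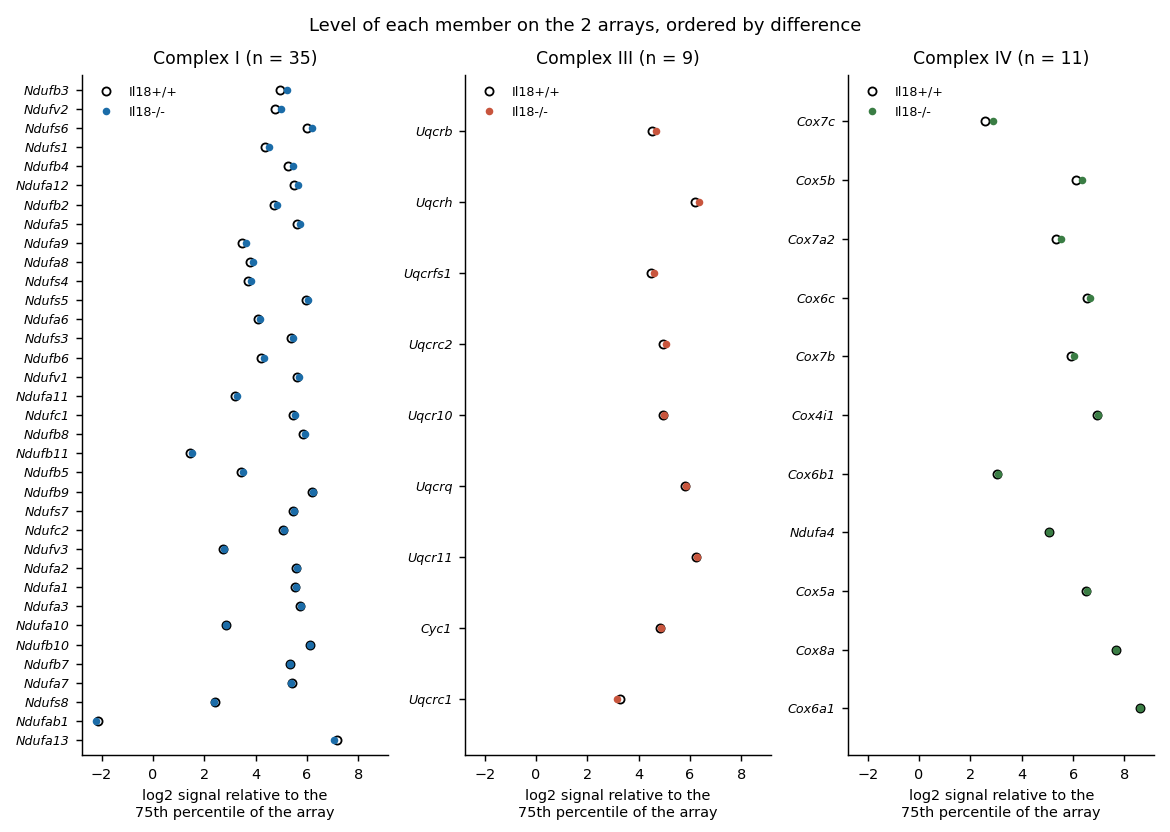
Level of each respiratory chain gene on the Il18+/+ array (open circles) and the Il18-/- array (filled circles), as log2 signal relative to the 75th percentile of the array, in 3 panels by complex and ordered by difference. Each circle is 1 pool with no error bar; the paired circles nearly coincide for most genes, and levels of different genes come from different probes and are not comparable.

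The promoter sequences of the genes with the highest and lowest difference in each complex are shown as its extremes. Cox7c is the highest of complex IV through a dim probe, and with the brightest probe its difference was 0.09, below that of Cox5b at 0.23. RefSeq windows of GRCm38.p6 were matched by symbol for 46 of the 55 genes, and the extremes were taken among these, so that Uqcrh stands for Uqcrb, which had no entry. Each sequence is the 250 bases before the transcription start, 5′ to 3′ on the strand of the gene. Capitals mark matches on either strand to CGCATGCG (the core site of nuclear respiratory factor 1), CCGGAAG (the core site of ETS factors such as GABP), AAGATGGC (YY1), GGGGCGGG (Sp1), TGACGTCA (the cyclic AMP response element), CCAAT (the CCAAT box) and TATAAA (the TATA box). None of the marked matches overlaps another. The windows lie at chr1:58586147-58586396 (+ strand) for Ndufb3, chr8:69902021-69902270 (- strand) for Ndufa13, chr4:116075071-116075320 (- strand) for Uqcrh, chr9:108936398-108936647 (+ strand) for Uqcrc1, chr13:86046796-86047045 (- strand) for Cox7c and chr5:115348959-115349208 (- strand) for Cox6a1.
Ndufb3: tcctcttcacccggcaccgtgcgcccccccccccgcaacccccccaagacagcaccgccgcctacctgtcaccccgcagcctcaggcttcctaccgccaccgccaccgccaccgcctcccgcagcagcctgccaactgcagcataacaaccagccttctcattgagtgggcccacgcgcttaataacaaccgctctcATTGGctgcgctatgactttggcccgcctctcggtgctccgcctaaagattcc
Ndufa13: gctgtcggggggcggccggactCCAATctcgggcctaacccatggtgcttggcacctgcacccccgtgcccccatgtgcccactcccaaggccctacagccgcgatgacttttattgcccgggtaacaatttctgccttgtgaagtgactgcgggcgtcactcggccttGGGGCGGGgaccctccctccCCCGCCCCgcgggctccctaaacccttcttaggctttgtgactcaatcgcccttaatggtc
Uqcrh: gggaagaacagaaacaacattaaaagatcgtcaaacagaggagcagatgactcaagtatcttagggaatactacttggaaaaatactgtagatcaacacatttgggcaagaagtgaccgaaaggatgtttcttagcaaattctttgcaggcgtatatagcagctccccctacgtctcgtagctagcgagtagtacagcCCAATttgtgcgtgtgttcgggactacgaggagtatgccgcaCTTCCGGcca
Uqcrc1: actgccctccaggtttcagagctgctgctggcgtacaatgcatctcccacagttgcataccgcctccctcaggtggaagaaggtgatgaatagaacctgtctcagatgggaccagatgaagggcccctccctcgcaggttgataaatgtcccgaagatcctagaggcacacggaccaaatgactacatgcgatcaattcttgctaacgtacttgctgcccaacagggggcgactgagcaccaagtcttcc
Cox7c: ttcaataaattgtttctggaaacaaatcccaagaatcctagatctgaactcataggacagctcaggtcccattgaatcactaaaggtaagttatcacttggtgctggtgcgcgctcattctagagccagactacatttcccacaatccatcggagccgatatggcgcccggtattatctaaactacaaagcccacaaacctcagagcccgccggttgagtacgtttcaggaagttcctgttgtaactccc
Cox6a1: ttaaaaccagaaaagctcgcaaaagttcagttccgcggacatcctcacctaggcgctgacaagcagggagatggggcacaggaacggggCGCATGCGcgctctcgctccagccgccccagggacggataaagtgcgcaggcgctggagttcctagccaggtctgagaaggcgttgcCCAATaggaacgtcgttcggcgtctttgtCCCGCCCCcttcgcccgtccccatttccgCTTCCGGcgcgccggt

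Both the highest and the lowest genes included a promoter with marked letters and one without. Cox7c and Uqcrc1, near opposite ends of the range when Cox7c is averaged over its probes, held none of the 7 motifs. Ndufb3 held 1 CCAAT box, and Cox6a1, whose difference was near 0, held 4 matches. Over the 46 matched genes the nuclear respiratory factor 1 letters stood in 3 (6.52%, against 1.75% of all genes with a window), the ETS letters in 7 (15.2%, against 7.83%) and the Sp1 letters in 9 (19.6%, against 16.8%). The cyclic AMP response element stood in 4 (8.70%, against 1.77%), the CCAAT box in 16 (34.8%, against 37.5%) and the TATA box in 4 (8.70%, against 14.3%). The YY1 letters were found in 0 of the 46 windows and in 1.83% of all genes. Among the 12502 measured genes with a window the shares were 3.04% for nuclear respiratory factor 1, 13.0% for ETS, 2.13% for YY1, 29.2% for Sp1, 2.79% for the cyclic AMP response element, 39.9% for the CCAAT box and 9.65% for the TATA box. The median difference was 0.05 in the 7 genes with ETS letters and 0.08 in the 39 without. It was 0.11 in the 4 genes with a cyclic AMP response element and 0.08 in the 42 without, and 0.01 in the 4 genes with a TATA box and 0.09 in the 42 without. For nuclear respiratory factor 1 it was 0.09 in 3 genes and 0.08 in 43, for Sp1 0.05 in 9 and 0.08 in 37, and for the CCAAT box 0.07 in 16 and 0.09 in 30. A match is a match of letters in this window and not a measured binding site.

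In complex I the genes of the electron-carrying core had a median difference of 0.10, and 5 of the 6 were higher. Ndufv2, which carries an iron-sulfur cluster beside the NADH site, read 4.74 in Il18+/+ and 4.98 in Il18-/-. This difference of 0.24 was the highest of the core, at an intensity of 18608 against 22399. Ndufs1, the large iron-sulfur subunit that leads electrons away from the NADH site, read 4.35 and 4.53, a difference of 0.18. Both passed 1.1-fold. Ndufs3, part of the arm that meets the membrane, read 5.36 and 5.46, a difference of 0.10. Ndufv1, which binds the flavin that accepts electrons from NADH, read 5.61 and 5.71, a difference of 0.09. Ndufs7, which holds the last iron-sulfur cluster before ubiquinone, read 5.44 and 5.50, a difference of 0.06. The core thus ran from differences above 1.1-fold in 2 genes to 1 gene on the other side of 0. Ndufs8, an iron-sulfur subunit of the same arm, was that gene, with 2.43 and 2.36 and a difference of -0.06.

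The accessory subunits of complex I, which surround the core and are needed to assemble or stabilise it, were also mostly higher. Among the 12 Ndufb and Ndufc genes, most of which belong to the membrane arm, the median was 0.08 and 10 were higher. Ndufb3 read 4.94 in Il18+/+ and 5.23 in Il18-/-, an intensity of 21399 against 26631 and a difference of 0.28 (1.22-fold) from 1 probe. Ndufb4 read 5.28 and 5.45, with its 2 probes at 0.14 and 0.21. Ndufb2 read 4.71 and 4.85, a difference of 0.14. The other 9 genes of this list lay between -0.0037 and 0.09, so that these 3 stood above the rest. Ndufb7 and Ndufb10 were the 2 below 0, by less than 0.01 in size.

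Among the 13 Ndufa genes, including Ndufab1, the median was 0.05, with 10 higher and 3 lower. Ndufa12, a subunit of the arm that faces the matrix, read 5.50 and 5.64, a difference of 0.14. Ndufa5 read 5.60 and 5.74, a difference of 0.13 that its 2 probes did not share evenly, at 0.03 and 0.24. Ndufa9, which lies where that arm meets the membrane, read 3.48 and 3.61, a difference of 0.12. Ndufa13, also called GRIM-19, was the lowest of all 55 genes, at 7.17 and 7.05, an intensity of 100067 against 93816 and a difference of -0.12 (1.09-fold lower). Ndufab1, the mitochondrial acyl carrier protein, was dim, at -2.16 and -2.23 and intensities of 155.8 and 151.5. Its difference was -0.07, and Ndufa7 was the remaining lower gene at -0.02. The list thus held values on both sides of 0 and the lowest value of all.

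The 4 accessory Ndufs and Ndufv genes were all higher in this scaling, with a median of 0.11. Ndufs6, a zinc-binding subunit, read 6.00 and 6.20, a difference of 0.20. Ndufs4, whose loss causes a form of Leigh syndrome, read 3.70 and 3.81, a difference of 0.11. Ndufs5 read 5.94 and 6.05, a difference of 0.11, and Ndufv3 had the smallest of the list at 0.05. Over the whole of complex I the median was 0.08, with 29 genes higher, 6 lower and 6 at 1.1-fold or more.

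Complex III had a median of 0.04 over 9 genes, with 8 higher and 1 lower. Of its catalytic subunits, Uqcrfs1, the Rieske iron-sulfur protein, read 4.47 in Il18+/+ and 4.59 in Il18-/-, a difference of 0.12. Cyc1, which encodes cytochrome c1, read 4.85 on both arrays, a difference of 0.0044. The catalytic pair therefore held 1 gene near 1.1-fold and 1 at 0. The core proteins, which face the matrix and carry no redox centre, lay on both sides of 0. Uqcrc2 read 4.94 and 5.05, a difference of 0.11. Uqcrc1 read 3.28 and 3.16, a difference of -0.12 (1.09-fold lower).

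The 5 small subunits of complex III lay at or above 0, with a median of 0.04. Uqcrb, which sits beside cytochrome b, read 4.52 and 4.67, a difference of 0.15, but its 3 probes gave -0.05, 0.26 and 0.25. Uqcrh, the hinge protein that helps cytochrome c1 meet cytochrome c, read 6.20 and 6.34, a difference of 0.14, with its 2 probes at 0.11 and 0.17. These were the 2 genes of the complex at 1.1-fold or more. Uqcr10 read 4.94 and 4.98 (0.04), Uqcrq 5.82 and 5.84 (0.02) and Uqcr11 6.24 and 6.25 (0.01), differences smaller than the spread of repeated spots given below.

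In complex IV all 11 genes were at or above 0 in this scaling, with a median of 0.06 and 3 genes at 1.1-fold or more. After cyclic loess, in the deposited value table and with spike-in scaling its median lay below 0. Cox7c, a small membrane subunit, read 2.56 in Il18+/+ and 2.89 in Il18-/-, the highest difference of all members at 0.33 (1.26-fold). This value rests on a dim probe, with intensities of 139.2 and 241.7 and a difference of 0.77. The bright probes of Cox7c gave 0.09 and 0.14, and with the brightest probe alone the gene's difference was 0.09. Cox5b, a zinc-binding subunit on the matrix side, read 6.10 and 6.33, a difference of 0.23 (1.17-fold) at 47602 against 57099. Cox7a2, the Cox7a isoform expressed outside muscle, read 5.35 and 5.55, a difference of 0.20. The other 8 genes lay between 0.0028 and 0.09, and Cox7c lies at their upper end when its brightest probe is used.

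Cox6c read 6.56 and 6.65 (0.09), and Cox7b read 5.94 and 6.03 (0.09). Cox4i1, the ubiquitous form of the subunit at which ATP regulates the enzyme, read 6.93 and 6.99 (0.06). Cox6b1, on the side facing the intermembrane space, read 3.02 and 3.07 (0.05). These 4 genes lay below 1.1-fold. Ndufa4, once assigned to complex I and counted here with complex IV, read 5.04 and 5.08 (0.04). Cox5a read 6.50 and 6.53 (0.03), and Cox8a 7.67 and 7.68 (0.01), with its 2 probes at -0.03 and 0.06. Cox6a1, the form found in brain and most other tissues, read 8.62 on both arrays, a difference of 0.0028, and was the nearest to 0 in the complex.

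**Figure D2:**
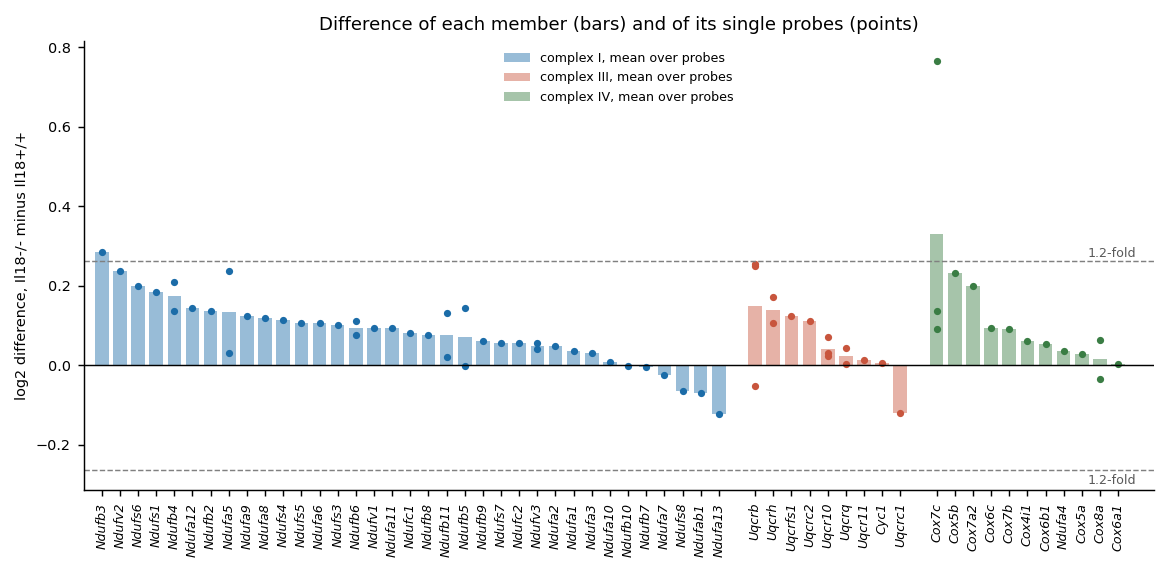
Difference of each respiratory chain gene in log2 units, Il18-/- minus Il18+/+, as bars (mean over its probes) coloured by complex, with single probes as points and dashed lines at 1.2-fold; bars carry no error because each genotype is 1 pool. Only Cox7c and Ndufb3 pass the upper line, the Cox7c bar is raised by 1 probe at 0.77, and all bars move together with the scaling, so that 1 of 55 is above 0 with spike-in scaling.

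The 3 complexes were close to each other. The median of complex I exceeded that of complex IV by 0.02, less than the median SD of repeated spots, and their order turned under quantile normalization (-0.015), after centring on neighbouring spots (-0.0039) and among members with several probes (-0.09). Counting Ndufa4 with complex I raised the median of complex IV to 0.08 and reduced the gap to 0.0031.

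The respiratory chain genes are among the brightest on the array, and bright genes in general read higher in Il18-/-. Of the 55 genes 53 lay among the top 20% of genes by level. In that range the median difference of the other genes was 0.07 and 75.2% were higher, while among the bottom 20% the median was -0.08 and 40.4% were higher. Among 690 other genes in the interquartile range of the members' level, 4.20 to 5.94, 79% were higher and 21% lower, with a median of 0.08. Of the same genes 26.7% were at 1.1-fold or more higher and 4.06% lower, 4.06% at 1.2-fold or more higher and 1.45% lower, and 0.435% at 1.5-fold or more higher and 0% lower. For the level range of complex I the median of other genes was 0.08 (928 genes), for complex III 0.09 (438 genes) and for complex IV 0.08 (274 genes). Set against the 200 other genes nearest in level, 27 of the 55 members lay above and 28 below, with 18 of 35 above in complex I, 4 of 9 in complex III and 5 of 11 in complex IV. The members' median difference was thus that of other genes of like level. A genotype effect on bright genes and a level-dependent difference between the arrays cannot be told apart with 1 array per genotype.

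**Figure D3:**
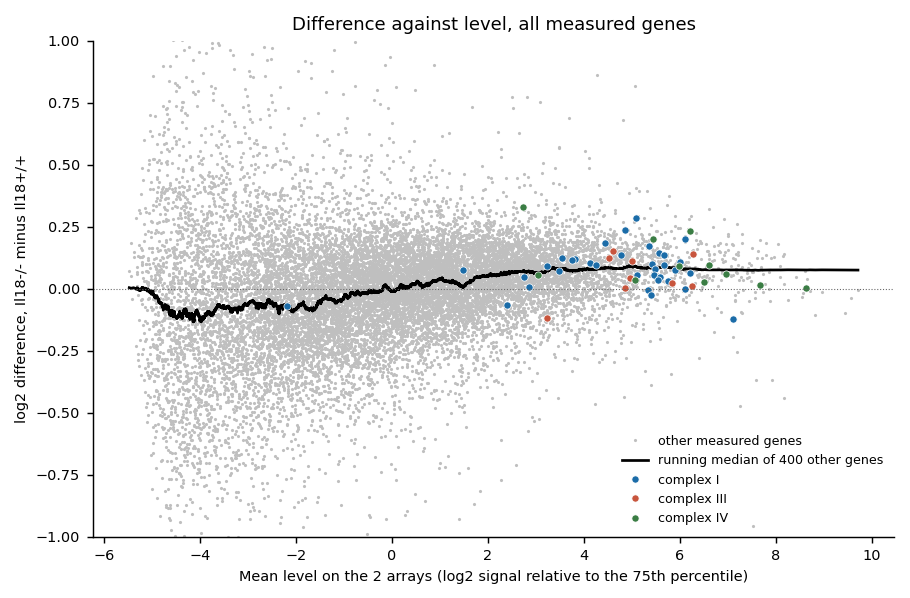
Difference (log2, Il18-/- minus Il18+/+) against mean level on the 2 arrays (log2 signal relative to the 75th percentile) for the members by complex and for all other measured genes in grey, with a running median of 400 other genes; 173 other genes lie outside the plotted range. The running median climbs from about -0.08 to 0.07 between the bottom 20% and the top 20% of genes by level, and the members scatter around it, 27 of 55 above the median of their nearest genes.

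Single differences were set against the measurement error within the array pair. Of the 55 members, 31 exceeded the median SD of repeated spots in size, and 4 exceeded its 95th percentile. Over 285 probes printed at 8 or more spots, the median SD of the difference between spots was 0.07 and the 95th percentile 0.23. Beyond the median SD lay 29 members higher and 2 lower (Ndufa13 and Uqcrc1), where 35.1% of all genes were higher and 33.1% lower by that much. Other genes in the interquartile range of the members' level had a median difference of 0.08 themselves. Beyond the 95th percentile lay 4 members, Cox7c, Ndufb3, Ndufv2 and Cox5b. Cox7c did so through its dim probe, and its bright probes gave 0.09 and 0.14. The share of all genes past this value is not given here, but at the larger cut of 1.2-fold 7.34% of all genes were higher and 12.4% lower. The error that the feature extraction software attaches to a signal gave an error of a difference of 0.204 for most member probes. It stayed between 0.204 and 0.218 at all intensities, so it is not a measured spread, and 8 of the 70 probes exceeded theirs. The share of all measured probes that did so is not given here. Uqcrc2 was the member printed many times. Its 9 usable spots were all higher in Il18-/-, with a lowest difference of 0.07, a median of 0.10 and a highest of 0.16 (mean 0.11 ± 0.03, SD over spots). This spread covers the printing and reading of the array and not the mice. Of the 12 members with several probes, 9 had all probes on 1 side of 0, and Ndufb5, Uqcrb and Cox8a had probes on both. For other genes with several probes this share is not given here. Spots around the members had a median difference of 0.01, as over the whole array. Named pseudogenes exist in RefSeq for 6 members (Cox5b, Cox7c, Ndufa12, Ndufab1, Ndufs5 and Uqcrh), and whether their transcripts add to these probes is not known here.

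**Figure D4:**
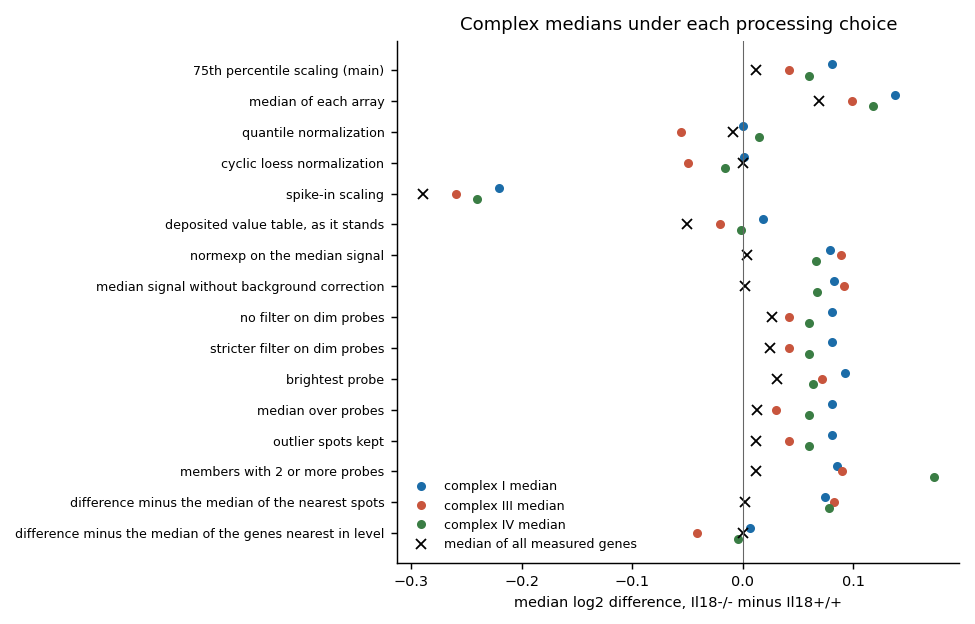
Median difference of each complex (circles) and of all measured genes (crosses), in log2 units of Il18-/- minus Il18+/+, under each processing choice. The complex medians lie between -0.26 and 0.17; spike-in scaling puts all 3 below 0, and quantile, cyclic loess and level centring bring complex I to within 0.01 of 0 and complex III below it.

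Leaving out the spike-in scaling, which changed the sign of 47 members, 23 members stayed above 0 under every choice tried. Another 4 (Ndufa13, Ndufab1, Ndufs8 and Uqcrc1) stayed below. The share of all genes that kept their sign in this way is not given here, so these counts do not set the members apart. Several choices, such as the filters on dim probes and keeping outlier spots, changed the sign of 0 members. The other 28 lay on both sides or at 0. Ndufb3 ranged from 0.17 to 0.34, Ndufv2 from 0.15 to 0.29, Cox5b from 0.12 to 0.29 and Cox7a2 from 0.10 to 0.26 over these choices. Ndufa13 ranged from -0.24 to -0.07 and Uqcrc1 from -0.20 to -0.06. Spike-in scaling moved the median of all genes to -0.29, and the members' median stayed 0.07 above it.

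Other genes of oxidative phosphorylation gave like values. The 4 genes of complex II, succinate dehydrogenase, had a median of 0.12, with Sdha at 4.29 and 4.44 (0.15) and Sdhd lower, at 4.33 and 4.19 (-0.14). Complex V, the ATP synthase, had a median of 0.09 with 16 of 17 higher, of which 3 were at 1.1-fold or more. Its mean level was 5.77 in Il18+/+. Among the other genes with levels of 4.20 to 5.94, the median was 0.08, 79% were higher and 26.7% were at 1.1-fold or more higher. Its largest were Atp5l, at 5.58 and 5.77, and Atp5g3, at 6.63 and 6.80. Cycs, the somatic cytochrome c, read 2.33 and 2.54 (0.21), and Cyct, the testis form, was not above background. The 17 genes of the citrate cycle and pyruvate dehydrogenase had a median of 0.06, with 12 higher, and Pdhb (0.21) and Dlst (0.16) were the largest. Their mean level was 3.61 in Il18+/+, and among the top 20% of other genes by level the median was 0.07 and 75.2% were higher.

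Factors that assemble the complexes had medians of 0.04 to 0.12 at lower levels, with list means of 0.75 to 0.99 in Il18+/+. Among the 20% of other genes with levels from 0.53 to 2.20, the median was 0.03 and 59.7% were higher. Of all measured genes 21.1% were at 1.1-fold or more higher and 24% lower. For complex I assembly the median of 16 genes was 0.10, with 6 at 1.1-fold or more higher and 1 lower. Timmdc1 was lower by 1.21-fold (-0.27) and Tmem126a higher (0.23). For complex IV assembly the median of 17 genes was 0.12, with 15 higher and 7 at 1.1-fold or more. Coa6, which helps deliver copper, read 1.41 and 1.70 (0.29), and Coa3 read 5.03 and 5.27 (0.25). For complex III assembly the median of 6 genes was 0.04, with 4 higher and 2 lower. Bcs1l, which inserts the Rieske protein, was at 0.14 and Uqcc3 at 0.10. The lower genes, Ttc19 (-0.03) and the dim Lyrm7 (-0.28, 1.22-fold lower), are named after their values were seen.

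The 15 regulators of mitochondrial biogenesis had a median of 0.00, with 8 higher and 7 lower. Ppargc1a, the coactivator PGC-1alpha, read -0.15 and -0.36 (-0.22), and Esrrg, an orphan receptor it works with, read -0.89 and -1.19 (-0.30). Esrrg was 1 of 3 of the 15 regulators at 1.2-fold or more lower, where the share of all genes was 12.4%. The regulators had a mean level of -0.31 in Il18+/+, and among other genes at the level of the subunits 1.45% were lower by as much. The other 2 regulators at 1.2-fold or more lower, Nrf1 (-0.39, with probes from -1.06 to 0.04) and Gabpb2 (-0.38), were dim and are named after their values were seen. Subunits and tissue-specific isoforms outside the list had a median of -0.01 over 9 genes. Cox8b, the heart and muscle form of Cox8, read -0.02 and -0.94, a difference of -0.91 (1.89-fold lower) on 1 probe. Cox6b2, the testis form, read -0.44 and -0.69 (-0.25). Cox7b2, a dim gene named after its value was seen, was higher, at -4.99 and -4.31 (0.68). Cox8b and Cox7b2 thus differed by more than any of the members, in opposite directions.

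**Figure D5:**
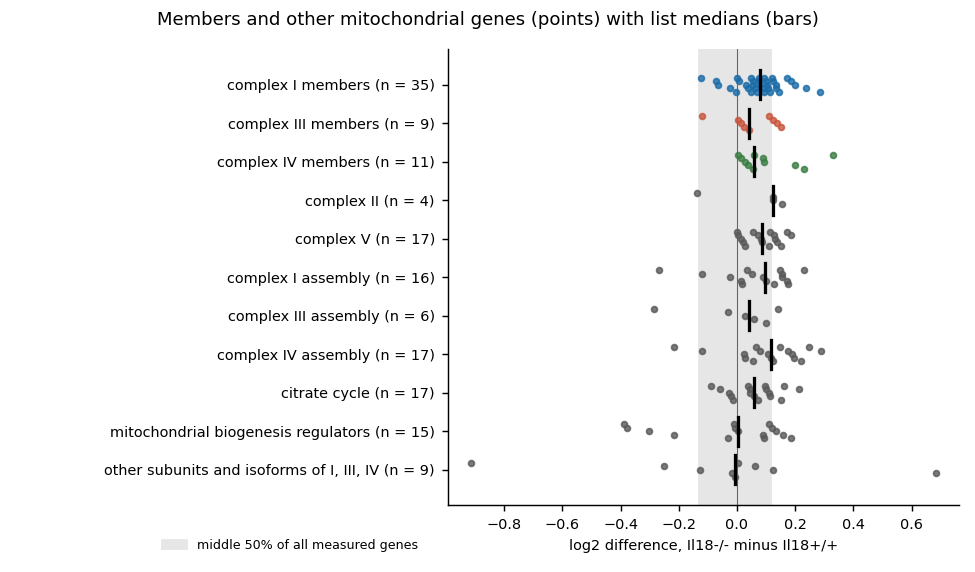
Difference (log2, Il18-/- minus Il18+/+) of single genes (points) and list medians (bars) for the members by complex and for other mitochondrial gene lists; grey shading is the middle 50% of all measured genes. The complex medians of 0.08, 0.04 and 0.06 lie inside the shading, while Cox8b at -0.91 lies far outside; with spike-in scaling the member medians lie below 0.

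The arrays differed in features that bear on the comparison. Il18 read 1.37 in Il18+/+ and -0.12 in Il18-/-, 2.80-fold lower on 1 probe, and where that probe lies in relation to the change in the allele is unknown. All 7 choroid plexus markers were lower in Il18-/- (mean level 2.77 against 1.53, median difference -1.20), as were all 6 oligodendrocyte markers (3.27 against 2.96, median -0.26). The 9 neuronal markers had mean levels of 4.56 and 4.54, with 4 higher and 5 lower, and the 6 astrocyte markers had a median of 0.08. The 6 hippocampal markers had a median of 0.18 (mean level 0.68 against 0.82), with 4 higher and 2 lower. The 4 higher ones were at 1.1-fold or more, where the share of all genes was 21.1%, and Wfs1 was the highest at 4.05 and 4.35. The lower ones were Dsp (-0.02, with probes at -0.30 and 0.26) and Fibcd1 (-0.02). The 5 measured medial habenula markers were all higher (-2.16 against -0.36), as were 4 of 5 measured liver markers, such as Alb at -4.95 and -1.31. The 1 lower liver marker was Ttr, at 8.01 and 7.05, which the choroid plexus list shares. Apoa1 of the liver list and Chrna3 of the habenula list were above background in Il18-/- only. The part of these in the respiratory chain values was not tested.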

How the data were processed

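The arrays shared 1 slide and 1 scan. Agilent Feature Extraction 10.10.1.1 gave the deposited intensity, per the submitters' processing notes, and per the file headers the array design is of build mm9. The processed intensity was background-subtracted within each array, per the file headers. The deposited value table holds the same intensity times a constant per array (2.05 and 1.92, column medians 151.5 and 139.5), linear and uncentred; the basis of the constants is unknown.

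Of 62976 spots per array, 3671 control spots and outlier spots (124 and 177) were left out; 0 were saturated. The log2 intensity minus that of the array's 75th percentile (694.8 and 709.9) was averaged over spots of a probe. A probe was measured where at least 0.5 of its spots were well above background on both arrays (35634 of 55681 probes), and a gene is the mean of its measured probes. Accessions without versions were matched to RefSeq GRCm38.p6, naming 27235 probes and leaving 28446 unnamed.

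No test was made, with 1 pool per genotype; array number limits precision. Both levels were to be given for complex I core, complex III and complex IV members, the 3 largest differences in each other complex I list and, outside the members, Il18 and the 2 largest per pathway list above the lower quartile of level. Members and lists were chosen with earlier results of these data known. Alternatives covered scaling, background correction (limma 3.58.1, normexp offset 50; the median signal stood in for the mean signal, not used here), filters, probe choice and Ndufa4's complex; 2, centring on the 50 nearest spots and on the 200 genes nearest in level, were added after seeing the data. Python 3.11.15 and R 4.3.3 were used, and calculations were tested on simulated data.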

Additional observations from a re-analysis of the deposited data

Results flagged for a closer look

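The spike-in control probes, which the comparison does not use, differed between the arrays. Over 8 probes at 260 spots the median difference was 0.30 (log2, Il18-/- minus Il18+/+), and 8 of 8 were higher in Il18-/-, from 0.14 to 0.36. The cause was not tested.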

How the results depend on the processing

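The number of members at 1.5-fold was 0 under all 16 alternatives. The median over all members was -0.0055 after cyclic loess, 0 after quantile normalization, -0.00041 after level centring (chosen after seeing the data) and -0.22 with spike-in scaling. In the same order, complex I gave 0.00064, 0, 0.0060 and -0.22, complex III -0.050, -0.056, -0.042 and -0.26. Complex IV gave -0.017 after loess, -0.0049 after level centring and -0.24 with spike-in scaling. The deposited value table gave -0.021 for complex III and -0.0016 for complex IV. Members with several probes gave 0.17 for complex IV. Complex I minus complex IV was -0.0039 after centring on the nearest spots (also chosen after seeing the data), -0.087 for members with several probes and -0.015 after quantile normalization. The number higher was 25 after loess, 27 after quantile normalization, 27 after level centring, 31 in the deposited table, 1 with spike-in scaling and 12 of the 12 members with several probes. At 1.2-fold 4 members passed with the array median, 17 with spike-in scaling (all lower), 0 after level centring, and 1 with the brightest probe, the median over probes, loess, quantile normalization, the deposited table, nearest-spot centring and members with several probes. Level centring and loess take out by construction a difference shared by genes of like level. Quantile normalization gives both arrays the same distribution of values. Spike-in scaling, the array median and the deposited table shift every gene by the same amount. Under these 3 settings the members' median stayed 0.07 above that of all genes. For the remaining settings the cause was not tested. Filters on dim probes and outlier spots kept every median within the SD of repeated spots. Single members moved by more than that SD in 44 of 55 after loess, 41 after quantile normalization, 47 after level centring and all 55 with spike-in scaling. No paired analysis was possible because each genotype has 1 pool. Signal limits Ndufab1 and the dim probes of Ndufb11, Ndufv3 and Cox7c.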

Other observations

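Genes of mitochondrial proteins lie near Il18 on chromosome 9. The largest differences among the measured genes within 6 of Il18 were those of Bco2, a carotenoid-cleaving enzyme 1 gene away (-1.27), and Pts, of tetrahydrobiopterin synthesis, 2 genes away (-1.06). Sdhd, a membrane anchor of complex II, is 2 protein-coding genes from Il18 and was the lower gene of its complex (-0.14). Timm8b, a chaperone of mitochondrial import, is 3 genes away and read 5.50 and 5.72 (0.22). Dlat, of pyruvate dehydrogenase, is 6 genes away (-0.09). Of the members on that chromosome, Cox5a is 87 genes from Il18 (0.03), Cox7a2 is 292 (0.20) and Uqcrc1 is 538 (-0.12). These genes were chosen after their values were seen.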
